A study of Mus musculus with 6 samples.

Results

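Teneurins, latrophilins and FLRT proteins are 3 small families of cell surface proteins, and their 10 genes (Tenm1 to Tenm4, Adgrl1 to Adgrl3 and Flrt1 to Flrt3) were followed here by gene symbol, out of 32285 genes counted in each library. Single-nucleus RNA sequencing was run on the prelimbic area of the medial prefrontal cortex of male C57BL/6 mice, with 6 libraries in all. Run mice were raised by dams that had a running wheel in the cage from shortly after birth until weaning, and Sed mice by dams in standard cages without one. The offspring themselves had no wheel. Group-housed mice (GH) lived with other males after weaning and single-housed mice (SI) lived alone. Cohort 1 gave 1 Run GH and 1 Sed GH library from mice that had been through social dominance tube tests. Its males were picked by their rank. The paper names the top and bottom of each group's own ranking, which reads as top for Run and bottom for Sed. Cohort 2 gave 1 Run and 1 Sed library for each kind of housing, from mice without behavioural testing and from other mothers. Each library pooled the tissue of several non-brother males, so no animal can be followed on its own. With 1 pool per group and cohort, no group has a replicate within a cohort. P-values between groups therefore rest on how far ratios disagree between cohorts and housings, and on what the test shares over genes. P-values between cell classes rest on the spread of the class difference over the 6 libraries. The labels give an age of P21, which is the age at weaning, whereas the study's methods place tissue collection in adulthood.

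Teneurins are large transmembrane proteins of the presynaptic and postsynaptic membrane that pair with one another or with latrophilins across the cleft. Latrophilins are adhesion G protein-coupled receptors, first found as receptors of black widow spider venom, and they bind teneurins and FLRTs through separate parts of their extracellular region. FLRTs are leucine-rich repeat transmembrane proteins that also bind Unc5 guidance receptors, and the combinations of these ligands and receptors help to specify which synapses form on which part of a cortical neuron.

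The libraries held between 19134955 and 188952936 unique molecular identifiers (UMIs), and 42595 nuclei passed the filters (4997 to 9936 a library), with a median of 1637 to 6250 UMIs a nucleus. Clustering with the 10 genes left out gave 15 named cell classes with 40182 nuclei. All pyramidal nuclei joined numbered 33647 and all inhibitory nuclei 4613, some of them without a finer class. The level of a gene was its count of UMIs summed over the nuclei of a class in a library and scaled to a common total (CPM). Barcodes with at least 30 UMIs but under the library's minimum for a nucleus (621 to 3156 UMIs) are here called droplets without nuclei. Nuclei of low depth may be among them, which was not tested. Their median was 1070 and 1202 UMIs in cohort 1 and 82 to 302 UMIs in cohort 2. These droplets carried 4.25 to 19.2% as many UMIs as the median nucleus. The summed markers of pyramidal cells still reached 13.6 to 44.7% of their pyramidal level in astrocytes and 19.3 to 34.0% in inhibitory nuclei. Between 5 and 22 nucleus barcodes were shared by any pair of libraries. The shallowest library was Sed GH of cohort 2.

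The genes differ widely in length, and unspliced nuclear RNA was counted with its introns, so levels are compared between genes only per length. On mm10 with GENCODE M21 coordinates, Tenm2 (ENSMUSG00000049336) spans 1229 kb of chromosome 11 (36006656 to 37235964, minus strand), Tenm1 (ENSMUSG00000016150) 901 kb of chromosome X (42527866 to 43429126, minus strand), Tenm4 (ENSMUSG00000048078) 740 kb of chromosome 7 (96171246 to 96911093, plus strand) and Tenm3 (ENSMUSG00000031561) 616 kb of chromosome 8 (48227682 to 48843951, minus strand). Among the latrophilins, Adgrl3 (ENSMUSG00000037605) spans 805 kb of chromosome 5 (81020138 to 81825133, plus strand), Adgrl2 (ENSMUSG00000028184) 175 kb of chromosome 3 (148815583 to 148990555, minus strand) and Adgrl1 (ENSMUSG00000013033) 41.9 kb of chromosome 8 (83900105 to 83941954, plus strand). The FLRT genes are short, with Flrt2 (ENSMUSG00000047414) at 93.0 kb on chromosome 12 (95692226 to 95785215, plus strand), Flrt3 (ENSMUSG00000051379) at 20.6 kb on chromosome 2 (140650914 to 140671469, minus strand) and Flrt1 (ENSMUSG00000047787) at 13.7 kb on chromosome 19 (7092001 to 7105729, minus strand). Flrt1 lies within Macrod1 and Flrt3 within Macrod2 on the opposite strand, and every other member but Flrt2 also overlaps an antisense gene. The strand setting of the counting is not given in the sources used here, so values of overlapping genes are uncertain where reads were not split by strand.

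The stretch before the start site is shown for 4 members, those whose RefSeq start lies within 10 bases of the start of the gene in GENCODE. The windows of Tenm1, Tenm2, Tenm3 and Adgrl2 lie 35.9 to 292 kb inside the gene, those of Adgrl3 0.433 kb or more and a further one of Tenm4 40.4 kb, and they are not shown. Windows were matched for 9 members, all but Flrt1. The sequences are the 250 bases upstream of the RefSeq start on GRCm38.p6, written 5′ to 3′ on the gene's own strand with CG dinucleotides in capitals. They lie at chr8:83899848-83900097 (plus strand, Adgrl1), chr12:95691976-95692225 (plus strand, Flrt2), chr2:140671477-140671726 (minus strand, Flrt3) and chr7:96170994-96171243 (plus strand, Tenm4).
Adgrl1: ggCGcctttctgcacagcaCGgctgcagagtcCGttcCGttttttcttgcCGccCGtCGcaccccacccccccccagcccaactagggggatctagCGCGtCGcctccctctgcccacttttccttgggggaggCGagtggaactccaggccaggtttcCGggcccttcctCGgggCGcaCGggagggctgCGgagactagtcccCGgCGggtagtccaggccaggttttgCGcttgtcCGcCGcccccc
Flrt2: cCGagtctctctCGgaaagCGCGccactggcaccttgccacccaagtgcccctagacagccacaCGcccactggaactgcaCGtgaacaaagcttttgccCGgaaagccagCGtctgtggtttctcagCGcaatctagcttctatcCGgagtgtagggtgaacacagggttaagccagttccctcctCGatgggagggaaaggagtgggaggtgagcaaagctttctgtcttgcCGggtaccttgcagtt
Flrt3: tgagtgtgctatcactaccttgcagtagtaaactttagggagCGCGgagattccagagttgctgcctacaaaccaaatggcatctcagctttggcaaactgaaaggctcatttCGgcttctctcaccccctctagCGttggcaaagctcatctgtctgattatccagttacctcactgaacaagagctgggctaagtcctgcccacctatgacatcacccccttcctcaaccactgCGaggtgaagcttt
Tenm4: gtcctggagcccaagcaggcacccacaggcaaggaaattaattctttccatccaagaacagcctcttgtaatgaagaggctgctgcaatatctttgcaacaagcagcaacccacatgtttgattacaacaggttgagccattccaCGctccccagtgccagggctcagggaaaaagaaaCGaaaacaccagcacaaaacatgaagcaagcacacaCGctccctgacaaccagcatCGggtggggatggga
The Adgrl1 window held 21 CG dinucleotides, the Flrt2 window 12, the Flrt3 window 5 and the Tenm4 window 4, against a median of 6.00 over 32817 windows of the same length. Both strands were searched for the cAMP response element TGACGTCA, the E-box core CACGTG, the TATA box letters TATAAA, the CCAAT box and the GC box GGGCGG. The Adgrl1 window held the GC box, as did 32.7% of all windows, and the Flrt2 window held the E-box core, as did 6.02%. The Flrt3 and Tenm4 windows held none of the 5 motifs.

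Per 100 kb of gene span, the pyramidal level was highest for Flrt2 (307 CPM), Flrt1 (305), Tenm2 (288) and Adgrl1 (261), followed by Flrt3 (210), Adgrl3 (157), Tenm4 (141) and Adgrl2 (92.4). It was lowest for Tenm1 (43.7) and Tenm3 (36.3). On this scale the short Flrt1 and Flrt2 genes stood beside Tenm2, and Tenm2 stayed above the other long members. The libraries are of 3′ chemistry, and whether counts grow with gene span was not tested. The order is thus one of scaled counts and not of transcript numbers. The divisor is the whole GENCODE span, and the RefSeq starts of Tenm1, Tenm2 and Tenm3 lie 154, 292 and 169 kb inside it.

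**Figure D1:**
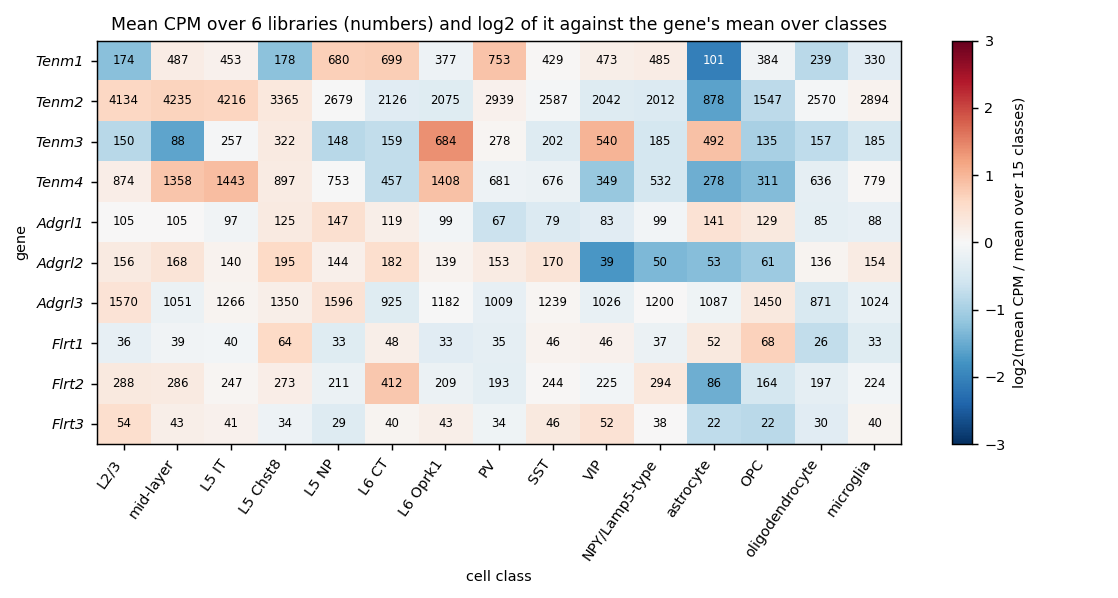
Mean CPM over the libraries of each of the 10 genes (vertical axis) in each named cell class (horizontal axis), written in each cell, with colour for the log2 ratio to the gene's own mean over classes. Tenm1 is lowest in astrocytes and L2/3, Tenm2 is lowest in astrocytes, and Tenm3 is highest in the L6 Oprk1 class (684 CPM), followed by VIP nuclei (540 CPM) and astrocytes (492 CPM).

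Tenm1, a teneurin encoded on the X chromosome, was lowest among pyramidal classes in L2/3 and L5 Chst8 nuclei and highest in L6 CT and L5 NP nuclei. Values per library are listed throughout in a fixed order, Run before Sed, with the group-housed pair of cohort 1 first, then the group-housed pair and last the single-housed pair of cohort 2. In L2/3 nuclei Tenm1 stood at 157, 191, 179, 171, 185 and 165 CPM, and in corticothalamic L6 nuclei (L6 CT) at 727, 651, 631, 729, 715 and 742 CPM. All 6 L6 CT values lay above all 6 L2/3 values, and the same held for near-projecting L5 nuclei (L5 NP), at 636, 601, 652, 774, 623 and 791 CPM. The difference from L2/3 was 2.00 ± 0.07 (SE) on the log2 scale in L6 CT, with an adjusted p of 5.46e-14 in edgeR's quasi-likelihood test, and 1.84 ± 0.08 in L5 NP with an adjusted p of 2.19e-18. Among interneurons the parvalbumin (PV) class held the highest level of any class, 753 ± 70.8 CPM (SD, n = 6), and its range overlapped those of L6 CT and L5 NP, the next classes in the order. Somatostatin (SST) nuclei stood at 429 CPM, below PV nuclei by a log2 difference of -0.80 ± 0.07 (adjusted p 5.17e-11, edgeR).

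Tenm2, a teneurin best known as a binding partner of latrophilins, was highest in the upper and middle layers. Its mean was 4235 ± 385 CPM (SD, n = 6) in mid-layer nuclei, 4216 in intratelencephalic L5 nuclei (L5 IT) and 4134 in L2/3, and these neighbours overlapped library by library. In L6 CT nuclei it stood at 3272, 1770, 1734, 2110, 2001 and 1866 CPM, where the Run GH library of cohort 1 lies apart from the other 5. The L6 CT level was lower than the L2/3 level within each library, with a log2 difference of -0.99 ± 0.07 (adjusted p 1.92e-09, edgeR), and the L6 Oprk1 class gave -0.97. Tenm2 was also lower in L5 NP than in L2/3 (-0.75).

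Tenm3, which guides the matching of neurons in visual and hippocampal circuits, had the steepest contrast between layers. The L6 class marked by the kappa opioid receptor gene Oprk1 held 633, 730, 787, 616, 775 and 565 CPM of Tenm3, and mid-layer nuclei 80.8, 72.6, 122, 77.1, 120 and 56.4 CPM. The groups did not overlap, and within a library the ratio of the highest to the lowest layer class was 6.44 to 10.0. L6 Oprk1 stood above L2/3 by 2.26 ± 0.07 on the log2 scale (adjusted p 6.85e-21, edgeR), the L5 class marked by Chst8 by 1.22 and L5 IT by 0.85, whereas mid-layer nuclei stood below L2/3 (-0.74). In L6 CT nuclei, the other deep class, Tenm3 was at 159 CPM, near its L2/3 mean of 150 CPM, and the 2 classes did not differ past the threshold.

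Tenm4, a teneurin with a role in myelination, had yet another order. L5 IT (1443 ± 248 CPM, SD, n = 6), L6 Oprk1 (1408) and mid-layer nuclei (1358) formed the top, and their ranges overlapped, while the lowest mid-layer library lay above the highest library of the next class, L5 Chst8. L6 CT was the lowest of the layer classes, at 568, 548, 417, 473, 378 and 355 CPM, and its difference from L2/3 was -0.92 ± 0.07 (adjusted p 1.89e-09, edgeR). Within a library L5 IT held 2.90 to 3.40 times the Tenm4 of L6 CT. In L6 CT, Tenm1 was thus high where Tenm2 and Tenm4 were low, and in L6 Oprk1 it was Tenm3 and Tenm4 that were high.

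**Figure D2:**
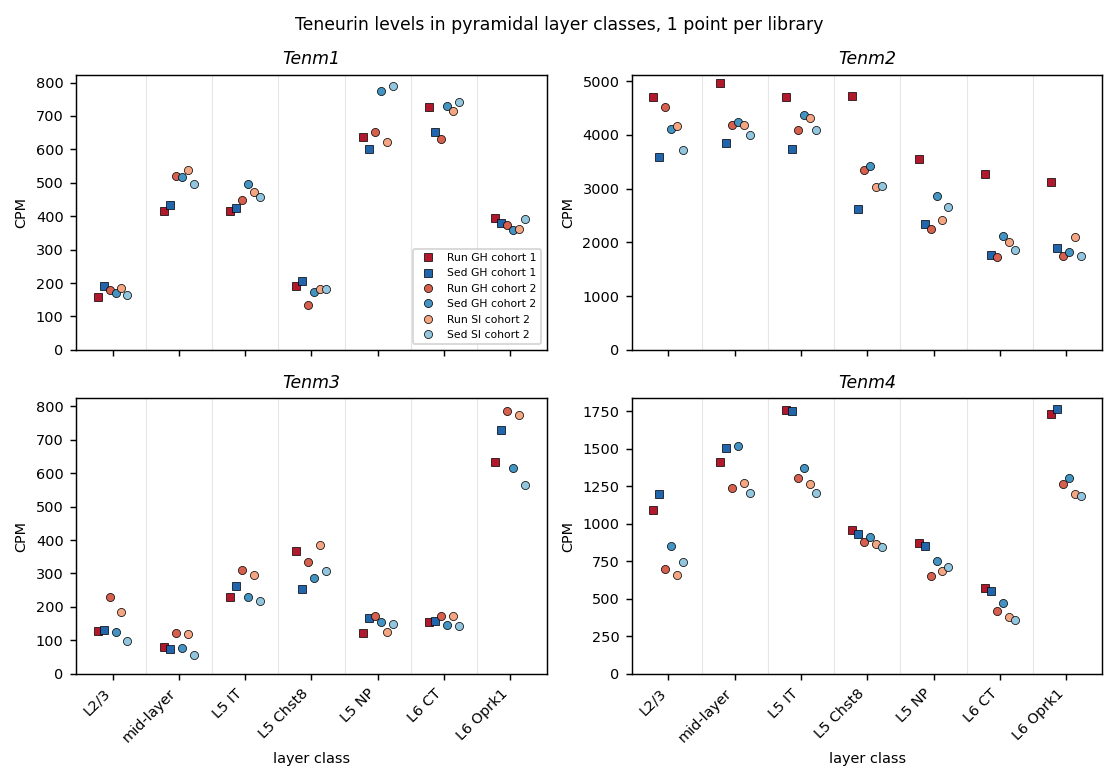
CPM of Tenm1 to Tenm4 in each of the 7 pyramidal classes, with 1 point per library. Tenm1 is highest in L6 CT and L5 NP, Tenm3 in L6 Oprk1, and Tenm4 in L5 IT, L6 Oprk1 and mid-layer nuclei, while the Tenm2 point of Run GH in cohort 1 sits above the other libraries in deep layers.

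The latrophilins varied less between layers. Adgrl3, a receptor of Flrt3 and teneurins that has been studied for attention deficit hyperactivity disorder, had a mean of 1596 CPM in L5 NP, 1570 in L2/3 and 925 in L6 CT, and the L6 CT difference from L2/3 was -0.75 ± 0.06 (adjusted p 3.37e-09, edgeR). Every class of its order overlapped the next one. Adgrl2, a receptor placed at synapses on distal dendrites in the hippocampus, was highest in the L5 Chst8 class at 204, 209, 163, 200, 202 and 191 CPM, all but 1 of them above its pyramidal range of 146 to 175 CPM. Adgrl1 was highest in L5 NP, with a mean of 147 CPM that was 0.34 ± 0.08 above L2/3 on the log2 scale (adjusted p 0.00159, edgeR), and no class was set apart from its neighbour by range.

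Adgrl2 separated interneuron classes instead. In nuclei of the vasoactive intestinal peptide (VIP) class it stood at 59.5, 66.4, 29.2, 21.3, 39.3 and 17.1 CPM, and in PV nuclei at 125, 159, 122, 159, 199 and 152 CPM. The groups did not overlap, with a log2 difference of -1.62 ± 0.20 (adjusted p 6.27e-08, edgeR). However, the VIP class had only 42 to 109 nuclei a library, and its values rested on 26, 17, 7, 1, 8 and 2 UMIs. NPY/Lamp5-type nuclei, a class that includes neurogliaform cells, gave -1.44 ± 0.17 against PV (adjusted p 2.24e-09, edgeR), from 1 to 27 UMIs a library. SST nuclei (170 CPM) did not differ from PV past the threshold (0.20 ± 0.10).

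The FLRTs peaked in different classes. Flrt2, a ligand of latrophilins and of Unc5d, was highest in L6 CT at 465, 303, 411, 519, 361 and 413 CPM, compared with 296, 248, 334, 307, 298 and 246 CPM in L2/3. In each library the L6 CT value was the larger, by 0.50 ± 0.08 on the log2 scale over L2/3 (adjusted p 2.32e-05, edgeR), though the ranges overlapped. Flrt1 peaked among neurons in the L5 Chst8 class, at 63.8, 96.5, 55.7, 62.2, 55.3 and 49.4 CPM against 30.4 to 52.3 CPM in L2/3, with the larger value in each library and a difference of 0.90 ± 0.07 (adjusted p 1.32e-09, edgeR). Droplets without nuclei held 26.4 and 26.3 CPM of Flrt1 in cohort 1 and 54.4 to 78.6 CPM in cohort 2. Flrt3, a ligand that binds latrophilins at glutamatergic synapses, was highest in L2/3 at 26.5, 18.8, 59.1, 78.6, 60.1 and 78.4 CPM and was lower there in both cohort 1 libraries than in any of cohort 2. Flrt3 was lower in each of the other 6 layer classes than in L2/3, from -0.29 in the mid-layer class to -0.95 in L5 NP. Macrod2, the gene on the other strand around Flrt3, was also counted in pyramidal nuclei, at 1743 to 2128 CPM.

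Against L2/3, 9 of the 10 genes were called in L6 CT (42.6% of all genes tested were called there), 7 in L5 NP (41.9%), 7 in L5 IT (40.4%), 7 in L6 Oprk1 (29.8%), 6 in L5 Chst8 (44.4%) and 6 in mid-layer nuclei (35.8%). Against PV, 4 were called in SST (24.6%), 5 in VIP (27.3%) and 8 in NPY/Lamp5-type nuclei (30.2%). Of 140 such values in all, glia and the inhibitory class included, 102 were called, with 30 higher and 72 lower, where 36.6% of all gene values were called, 17.9% higher and 18.7% lower. The classes were drawn from other genes of the same nuclei, so these p-values describe classes so defined. Leaving out a single library ended several of the smaller calls. Without any 1 of the 4 libraries of cohort 2, the calls of Adgrl1 in L6 CT (0.14 to 0.17), Adgrl2 in mid-layer nuclei (0.10 to 0.13) and Tenm2 in L5 Chst8 (-0.25 to -0.20, beside -0.23 with all libraries) did not pass the threshold. The Adgrl2 call in L6 CT ended without Run GH, Sed GH or Sed SI of cohort 2 (0.19, 0.18 and 0.17), that in L5 NP without Run GH of cohort 1 or Run SI (-0.23 and -0.17), and the Flrt1 call in L5 IT without Run SI or Sed SI (0.13 and 0.15). In NPY/Lamp5-type nuclei the Adgrl1 call ended without Run GH of cohort 2 (0.38) and the Adgrl3 call without any library but Sed GH of cohort 1 and Run SI (0.17 to 0.20).

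Inhibitory nuclei held more Tenm1 and less of most other members than pyramidal nuclei, and they held more Tenm3 when the nuclei without a subtype were counted in. Of the 10 genes, 9 were called against pyramidal nuclei (51.2% of all genes tested were called), with Tenm1 (0.34) and Tenm3 (0.88 ± 0.17, adjusted p 2.78e-04, edgeR) higher and Tenm2 (-0.57), Tenm4 (-0.67), Adgrl1 (-0.57), Adgrl2 (-0.55), Adgrl3 (-0.29), Flrt2 (-0.54) and Flrt3 (-0.22) lower. The Flrt3 call ended without Sed SI (-0.18, adjusted p 0.0526). Among interneurons, VIP nuclei held 705, 512, 504, 534, 472 and 512 CPM of Tenm3 and PV nuclei 326, 238, 296, 333, 257 and 221 CPM, which did not overlap (1.02 ± 0.11, adjusted p 2.77e-09). VIP nuclei held less Tenm4 than PV nuclei (-0.94 ± 0.11, adjusted p 9.47e-09), but that difference was 0.18 with an adjusted p of 0.738 when nuclei were clustered on log-normalized values, and -0.31 with an adjusted p of 0.167 when the 10 genes were kept in the clustering.

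The Tenm3 excess of the inhibitory class rested on nuclei that received no subtype. In all inhibitory nuclei Tenm3 was at 355, 293, 879, 326, 327 and 807 CPM, so that Run GH and Sed SI of cohort 2 stood far above the other 4 libraries. In nuclei of the 4 named interneuron classes it was at 324, 266, 259, 268, 243 and 217 CPM, and in inhibitory nuclei without a subtype at 483, 441, 2811, 669, 775 and 2263 CPM. A pair of clusters carried the high values. A cluster led by Abi3bp and Bmpr1b had 134 nuclei, 121 of them in Run GH of cohort 2 (10.1% of its inhibitory nuclei), with 4218 CPM of Tenm3 there, and a cluster led by Cpa6, Meis2 and Lgr5 had 98 nuclei in Sed SI (17.7%) with 3589 CPM, against 797 to 871 CPM in the other libraries of cohort 2. With the unnamed nuclei left out, a setting added after the data were seen, the difference between inhibitory and pyramidal nuclei was 0.11 with an adjusted p of 0.258 in edgeR, and Flrt1 was then lower (-0.24, adjusted p 0.0181). With the 10 genes kept in the clustering the Tenm3 difference was 0.23.

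**Figure D3:**
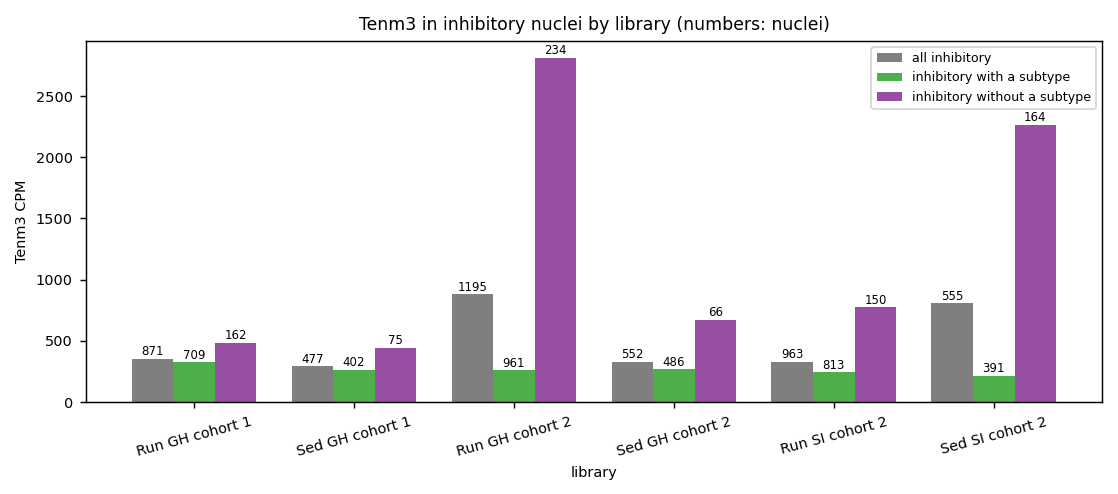
Tenm3 (CPM) in each library for all inhibitory nuclei, for those with a named interneuron class and for those without one. The high totals of Run GH and Sed SI in cohort 2 (879 and 807 CPM) come from nuclei without a class (2811 and 2263 CPM), while named nuclei lie between 217 and 324 CPM.

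In astrocytes, Tenm3 stood above its pyramidal level and most other members stood below theirs. Astrocytes held 450, 516, 483, 511, 478 and 513 CPM of Tenm3, above every pyramidal library (191 to 274 CPM) and above the droplets without nuclei (89.2 to 230 CPM), by 0.95 ± 0.13 on the log2 scale over pyramidal nuclei (adjusted p 2.11e-06, edgeR). In the fit the same astrocytes held less Tenm2 (-2.49 ± 0.26), Tenm4 (-2.18 ± 0.19), Tenm1 (-2.17 ± 0.26), Flrt2 (-1.86 ± 0.24), Adgrl2 (-1.66), Flrt3 (-0.95) and Adgrl3 (-0.40). That made 8 of 10 called (53.6% of all genes tested). Astrocyte Tenm2 was at 1988 and 1432 CPM in cohort 1 and 381 to 668 CPM in cohort 2, and the droplets of cohort 1 held 3959 and 3336 CPM of it. Oligodendrocyte precursors (OPC) had 7 members called (32.8%), oligodendrocytes 9 (20.6%) and microglia 10 (26.8%), each of them lower than in pyramidal nuclei in the fit. These differences are on the TMM scale of edgeR, and the smaller ones do not all hold in CPM. Tenm1 in OPC stood at 358, 354, 350, 590, 374 and 280 CPM, beside 356, 403, 391, 397, 412 and 405 CPM in pyramidal nuclei. In cohort 1 Adgrl3 stood at 1349 and 1212 CPM in astrocytes, above its 1218 and 942 CPM in pyramidal nuclei. The Adgrl3 call in astrocytes ended without any 1 library of cohort 2 (-0.38 to -0.45), the Flrt3 call in microglia without Run GH of cohort 2 (-0.47) or Run SI (-0.36), and the Adgrl2 call in oligodendrocytes without Run GH of cohort 1 (-0.51). Markers of pyramidal cells reached at most 45.8% of their pyramidal level in OPC, 46.1 to 73.3% in oligodendrocytes and 60.2 to 74.1% in microglia, and their part in the glial levels was not tested.

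The genes most alike in their pattern over the 15 classes were found by Pearson correlation of mean log2(CPM + 1), among 9893 genes, as a description over classes that share libraries. Tenm1 was closest to Scrn1 (0.886), Tenm2 to Lrfn5 (0.916), Tenm3 to Chpt1 (0.782), Adgrl1 to P4ha1 (0.827), Adgrl3 to Gm32834 (0.788), Flrt1 to Midn (0.820), Flrt2 to Rps6kl1 (0.918) and Flrt3 to Csrnp2 (0.936). Tenm4 was closest to Gm15414 (0.919), an antisense gene within Tenm4, whose reads would mix with its own if strand was not used. Adgrl2 was closest to Gm30382 (0.979). Between members the highest values were Tenm4 with Tenm2 (0.80), Flrt2 with Tenm2 (0.73) and Adgrl2 with Tenm4 (0.70), and the lowest were Flrt3 with Adgrl1 (-0.43) and Tenm3 with Tenm2 (-0.40).

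The 13 other genes of the pathway, receptors and ligands known to bind these proteins, were called in 125 of 172 class values, 57 higher and 68 lower, beside the 36.6% of all gene values given above (17.9% higher and 18.7% lower). Unc5d, the guidance receptor that binds Flrt2 and Flrt3, was lower than in L2/3 in L6 CT (-2.96), L5 Chst8 (-2.76), L5 NP (-1.38) and L5 IT (-0.21) and higher in mid-layer nuclei (0.25). Unc5c, its relative, was lower in L6 CT (-1.43) and L5 NP (-0.80) and higher in the other 4 layer classes, from 1.09 in L5 Chst8 to 1.48 in L5 IT. Fgfr1, a growth factor receptor that FLRTs bind, was higher than in L2/3 in 5 of the 6 other layer classes, most in L5 Chst8 (3.65), L5 NP (3.57) and L6 CT (2.92). Cntn6, an adhesion protein that binds Adgrl1, was higher in L5 NP (2.72), L5 Chst8 (1.47), mid-layer (0.89) and L5 IT nuclei (0.70) and lower in L6 CT (-0.76) and L6 Oprk1 nuclei (-0.61).

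With housing and cohort in the fit, no member passed the test between Run and Sed mice. None of 165 values over the 10 genes and 17 classes (the 15 classes plus all pyramidal and all inhibitory nuclei) was called by edgeR, 19 had an unadjusted p under 0.05 (6.57% of all gene values did), and DESeq2 called 0. 5 values are missing because Flrt1 (in VIP nuclei, oligodendrocytes and microglia) and Flrt3 (in OPC and oligodendrocytes) did not pass the filter on low counts. Few genes of any kind were called, 0.047% of the gene values of all classes together and between 0 and 0.208% by class. The residual spread of this fit includes the disagreement between cohorts in the Run to Sed ratio, which is described below. The smallest p was that of Adgrl1 in L5 NP, lower in Run (-0.48 ± 0.15, unadjusted p 0.00318, adjusted p 0.354), followed by Tenm3 in mid-layer nuclei, where each Run library stood above its Sed partner (0.58 ± 0.15, unadjusted p 0.00395, adjusted p 0.478). Tenm3 in L2/3 gave 0.53 ± 0.16 (adjusted p 0.614). Either of the libraries of cohort 1, when left out, leaves the ratio to cohort 2. Then 17 of 167 values were called without Run GH of cohort 1, beside 4.26% of all gene values, and 17 of 169 without Sed GH of cohort 1, beside 4.09%. In pyramidal nuclei the median log2 difference of the 10 genes was -0.11, beside -0.00 over all genes tested. In simulated data 68% of genes changed by 1 on the log2 scale were recovered by the same fit in pyramidal nuclei. Recovery of smaller changes, such as those given above for Adgrl1 and Tenm3, was not tested. Nor was recovery tested where the Run to Sed ratio differs between cohorts.

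**Figure D4:**
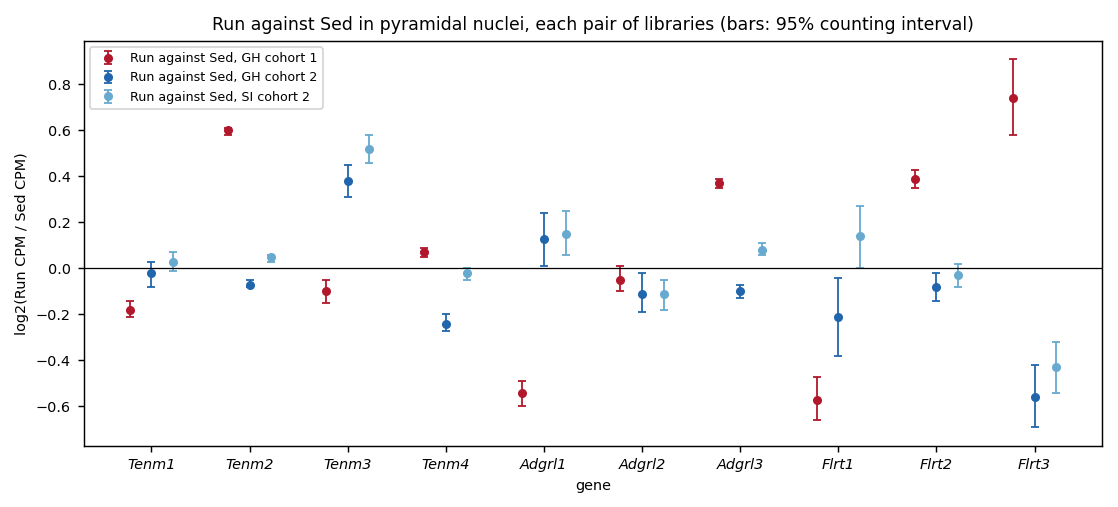
Log2 ratio of Run to Sed in pyramidal nuclei for each gene, with 1 point for each pair of libraries and a bar for the 95% counting interval. Flrt3 lies at 0.74 in cohort 1 and at -0.56 and -0.43 in cohort 2, and Tenm3 at -0.10 in cohort 1 and at 0.38 and 0.52 in cohort 2.

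The Run to Sed ratio of several genes was not the same in the cohorts when libraries were compared pair by pair. In cohort 1 maternal environment and the choice of males by rank cannot be told apart in this ratio. The median log2 ratio of all genes in pyramidal nuclei was -0.05 in cohort 1, and 0.12 in the group-housed and 0.09 in the single-housed pair of cohort 2. Flrt3 in pyramidal nuclei was at 23.1 and 13.8 CPM in Run GH and Sed GH of cohort 1, at 43.8 and 64.4 CPM in Run GH and Sed GH of cohort 2, and at 48.5 and 65.2 CPM in Run SI and Sed SI. Run was the higher in cohort 1 (log2 ratio 0.74, 95% counting interval 0.58 to 0.91, from 1001 and 422 UMIs) and the lower in both pairs of cohort 2 (-0.56 with an interval of -0.69 to -0.42, and -0.43 with -0.54 to -0.32). Droplets without nuclei held 27.0 and 20.8 CPM of Flrt3 in cohort 1, above the nuclei of the same libraries, and 30.5 to 39.0 CPM in cohort 2, below them. Intervals cover counting error only.

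Tenm2 was at 4499, 2977, 3453, 3613, 3420 and 3307 CPM in pyramidal nuclei, so that 1 library, Run GH of cohort 1, lay apart from the other 5. The log2 ratio of Run to Sed was 0.60 in cohort 1 (interval 0.58 to 0.61), -0.07 in the group-housed pair of cohort 2 (-0.08 to -0.05) and 0.05 in its single-housed pair (0.03 to 0.06). Adgrl3 (1218 and 942 CPM in cohort 1) and Flrt2 (315 and 240 CPM) likewise had Run above Sed in cohort 1, at 0.37 and 0.39, and lay near 0 in cohort 2, at -0.10 and 0.08 for Adgrl3 and -0.08 and -0.03 for Flrt2. Adgrl1 was lower in Run in cohort 1, at 129 and 188 CPM (-0.54, interval -0.60 to -0.49), and its ratios in cohort 2 (0.13 and 0.15, at 79.3 to 88.9 CPM) were close to the medians of all genes. Flrt1 had ratios of -0.57 in cohort 1 and -0.21 and 0.14 in cohort 2. In cohort 1, droplets without nuclei held 1548 and 1507 CPM of Adgrl3 and 354 and 330 CPM of Flrt2, above the pyramidal nuclei. They held 3959 and 3336 CPM of Tenm2, above the nuclei in Sed GH only. Tenm1, Tenm3 and Adgrl2 were also higher in these droplets than in pyramidal nuclei. In cohort 2, droplets held 224 to 234 CPM of Adgrl1 and 54.4 to 78.6 CPM of Flrt1, above the pyramidal nuclei.

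Tenm3 was at 193 and 207 CPM in Run GH and Sed GH of cohort 1, and in cohort 2 at 269 and 207 CPM in the group-housed pair and 274 and 191 CPM in the single-housed pair. Run lay above Sed in both pairs of cohort 2, by 0.38 (interval 0.31 to 0.45) and 0.52 (0.46 to 0.58), and slightly below it in cohort 1 (-0.10, interval -0.15 to -0.05). In L2/3 nuclei Tenm3 was at 129 and 132 CPM in cohort 1, 229 and 125 CPM in the group-housed pair of cohort 2 and 186 and 96.8 CPM in the single-housed pair, which gave 0.87 (0.69 to 1.06) and 0.94 (0.78 to 1.10) in cohort 2 beside -0.04 (-0.16 to 0.08) in cohort 1. In mid-layer nuclei the ratios were 0.15, 0.66 and 1.09. The ratios of cohort 2 were thus larger in these upper classes than over all pyramidal nuclei, a difference that was not tested.

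**Figure D5:**
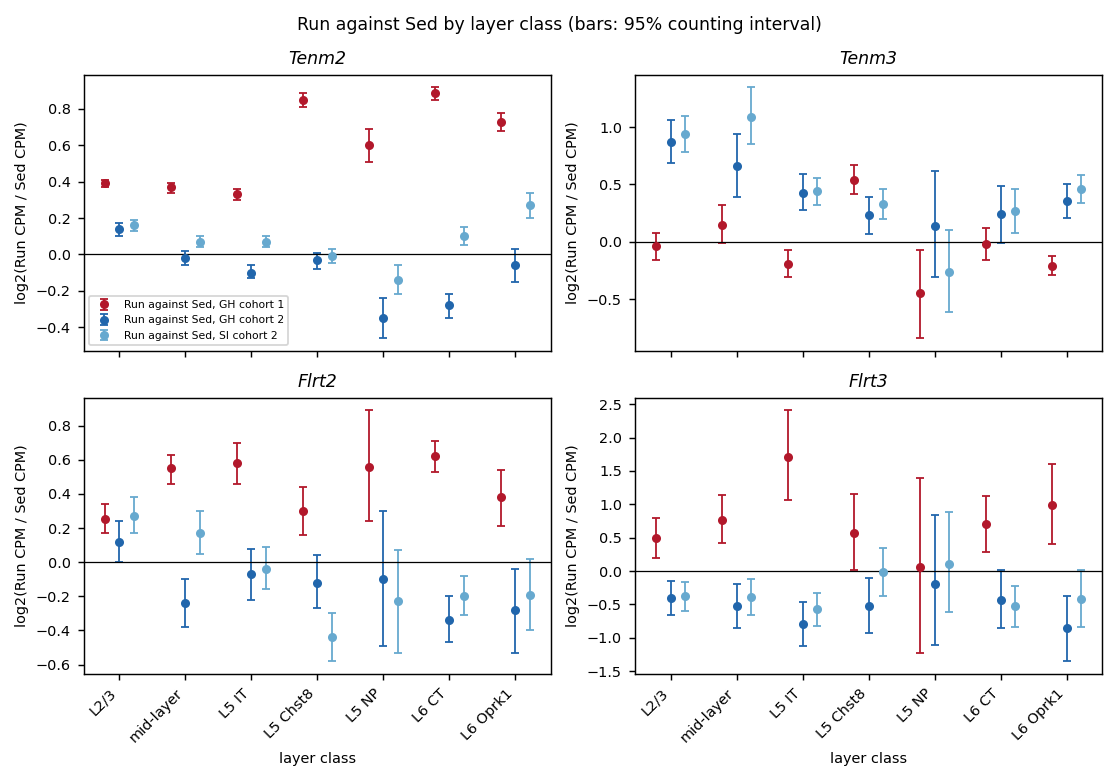
Log2 ratio of Run to Sed for Tenm2, Tenm3, Flrt2 and Flrt3 in each pyramidal class, with 1 point for each pair of libraries and a bar for its 95% counting interval. Tenm3 lies above 0 in both pairs of cohort 2 in L2/3 (0.87 and 0.94) and mid-layer nuclei (0.66 and 1.09), and Flrt3 in L5 IT lies at 1.71 in cohort 1 and at -0.80 and -0.57 in cohort 2.

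The difference between the cohorts in the Run to Sed ratio was tested as an interaction. Selection by rank, made in cohort 1 only, cannot be told apart from it. Cohort 1 has 1 library a group, so its ratio has no replicate, and the spread comes from the 4 libraries of cohort 2, with 1 residual degree of freedom, and from what edgeR shares over genes. The Tenm2 values rest on the libraries of cohort 1. In pyramidal nuclei Run GH of cohort 1 was the highest of the 6 libraries (4499 CPM) and Sed GH of cohort 1 the lowest (2977 CPM). The same held in L5 IT (4702 and 3737 CPM). With its spread taken from cohort 2, the test takes cohort 1 to vary like cohort 2. It was called for 31 of 169 values, 4 of them with a higher and 27 with a lower ratio in cohort 2, where 3.16% of all gene values were called, 0.899% higher and 2.26% lower. In pyramidal nuclei 6 of 10 members were called, where 9.62% of all genes were, with Flrt3 at -1.36 ± 0.17 (adjusted p 2.92e-05, edgeR), Tenm2 at -0.73 ± 0.10 (6.15e-05), Flrt2 at -0.57 ± 0.12 (0.00357), Adgrl3 at -0.51 ± 0.11 (0.00561), Adgrl1 at 0.56 ± 0.13 (0.00976) and Tenm3 at 0.42 ± 0.12 (0.0386). In L6 CT nuclei Tenm2 differed by -1.09 ± 0.12 (adjusted p 2.11e-16) and Flrt2 by -0.99 ± 0.15 (1.81e-08), with Flrt3 and Adgrl3 also called (4 of 10, beside 4.36% of all genes). L5 IT had 4 called (4.21%), mid-layer nuclei 4 (5.41%), L5 Chst8 3 (3.74%), L6 Oprk1 3 (2.57%), L2/3 2 (5.44%), L5 NP 2 (0.74%), and the inhibitory class (2.45%), SST (0.699%) and microglia (0.451%) 1 each. With inhibitory nuclei that have no subtype left out, Tenm2 (-0.50, adjusted p 0.0247) and Flrt2 (-0.72, adjusted p 0.0106) were called there beside Flrt3 (-1.33, adjusted p 0.0252). Flrt1 in pyramidal nuclei gave 0.41 ± 0.17 and was not called (adjusted p 0.151). The largest Flrt3 value, -2.52 ± 0.34 in L5 IT (adjusted p 1.34e-05), rested on 24 UMIs in Sed GH of cohort 1.

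DESeq2 called 5 of the 31 differences, which were Flrt3 and Tenm2 in pyramidal nuclei (-1.34 and -0.71), Flrt3 in L5 IT (-2.54) and Tenm2 in L5 Chst8 and L6 CT (-1.02 and -1.08). No Tenm3 difference between cohorts was called by DESeq2 (0.45 in pyramidal, 0.85 in L2/3 and 0.63 in mid-layer nuclei) or with each nucleus thinned to 1000 UMIs (0.45, 0.76 and 0.93). Cohort 1 also differed from cohort 2 in quality measures. Malat1 made up 2.73 and 3.05% of pyramidal UMIs in cohort 1 and 9.30 to 11.8% in cohort 2, and genes spanning at least 500 kb, which include the 4 teneurins and Adgrl3, gave 31.7% in Run GH and 28.9% in Sed GH of cohort 1 beside 24.8 to 25.1% in cohort 2. The part of these measures in the differences was not tested.

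Of the 13 pathway genes, 33 of 195 values were called for the difference between cohorts, 1 higher and 32 lower in cohort 2, beside 3.16% of all gene values (0.899% higher and 2.26% lower). In pyramidal nuclei Fgfr2 (-1.15), Unc5d (-0.74), Unc5c (-0.60) and Nrxn3 (-0.33) had a lower Run to Sed ratio in cohort 2, the direction of Tenm2, Adgrl3, Flrt2 and Flrt3. The single higher value was Cntn6 in L5 IT.

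Cohort 2 taken alone, a fit added after the data were seen, with housing in the model and 1 residual degree of freedom, called 16 of 162 values, 4 higher and 12 lower in Run, where 4.84% of all gene values were called, 1.54% higher and 3.3% lower, and 44 had an unadjusted p under 0.05, as did 15.9% of all gene values. Tenm3 was higher in Run mice in pyramidal nuclei (0.36 ± 0.07, adjusted p 0.00671, edgeR, 12.5% of all genes called), L2/3 (0.81 ± 0.12, adjusted p 9.52e-10, 9.76%), mid-layer nuclei (0.81 ± 0.12, adjusted p 7.45e-09, 8.36%) and L5 IT (0.33 ± 0.09, adjusted p 0.0100, 8.31%). Flrt3 was lower in Run mice in pyramidal nuclei (-0.58 ± 0.09, adjusted p 9.36e-04) and in L2/3 (-0.49), mid-layer (-0.53), L5 IT (-0.77), L6 CT (-0.58, 5.2% of all genes called) and L6 Oprk1 nuclei (-0.71, 2.58%). The other calls were all lower in Run, namely Tenm4 in L2/3 (-0.33), Flrt2 in L5 Chst8 (-0.40, 3.13%) and L6 CT (-0.35), Tenm1 (-0.37) and Tenm2 (-0.30) in L5 NP (2%), and Adgrl2 in L6 CT (-0.39). These 4 libraries are 2 pairs, and in both the Run library held more UMIs than the Sed library. Pyramidal nuclei of the Run libraries also had more mitochondrial protein RNA (0.289 and 0.290% of UMIs, beside 0.111 and 0.151% in Sed), less Malat1 (9.30 and 9.34%, beside 11.3 and 11.8%) and more Meg3 (1.04 and 1.08%, beside 0.882% in each Sed library). The part of depth and of these measures in the cohort 2 values was not tested.

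No member passed the test between single-housed and group-housed mice. Of 165 values 0 were called by edgeR, 8 had an unadjusted p under 0.05 (2.12% of all gene values did), DESeq2 called 0, and 0.00229% of all gene values were called. The 8 values included Tenm1 in astrocytes, lower in SI (-1.54 ± 0.33, unadjusted p 7.14e-05, adjusted p 0.218, edgeR), from 6 to 74 UMIs a library in cohort 2. Tenm3 was lower in OPC (-1.13) and oligodendrocytes (-1.02), and Flrt1 was higher in L5 IT (0.55). In OPC of cohort 2, Tenm3 was lower in SI only in Run mice (324 CPM in GH and 130 CPM in SI). In Sed mice it was at 45.4 CPM in GH and 75.5 CPM in SI, from 1 and 7 UMIs. In pyramidal nuclei Adgrl3 was lower in SI than in GH in both Run (-0.15) and Sed mice (-0.33), as was Flrt2 (-0.21 and -0.25), as log2 ratios of 2 libraries beside medians of -0.03 and 0.00 over all genes. Tenm4 gave -0.02 in Run and -0.24 in Sed mice, and Flrt1 gave 0.30 and -0.05, with opposite signs.

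The levels of several members differed between the cohorts. Flrt3 in pyramidal nuclei was higher in cohort 2 than in cohort 1, by 0.93 (interval 0.81 to 1.04) between the Run GH libraries and by 2.22 (2.04 to 2.41) between the Sed GH libraries, and Adgrl1 was lower (-0.54 and -1.21). Tenm4 was lower as well (-0.46 and -0.16), beside medians of 0.21 and 0.02 over all genes. Cohort, behavioural testing, selection by rank, library preparation and depth cannot be told apart in these values.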

How the data were processed

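The authors made 6 single-nucleus libraries with 10x 3′ V3 chemistry, and the deposited values are raw UMI counts per gene and barcode, counted with Cell Ranger (6.0.0 in the submitters' processing notes) against mm10 with introns included. The strand setting is not given in the sources used here. Nuclei needed 500 to 4000 genes, at most 1% mitochondrial UMIs and a minimum number of UMIs set in each library (621 to 3156). Cohorts were clustered apart with scanpy 1.11.5 (Pearson residuals of 3000 genes without the 10 members, 35 components, 20 neighbours, Leiden resolution 0.6) and clusters were named from marker lists. The naming rule was adjusted after the clusters were seen, so that clusters led by mitochondrial or Gm42418 transcripts, or mixed ones, stayed unnamed.

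Counts were summed per library and class and tested with edgeR 4.0.16 (R 4.3.3, quasi-likelihood, TMM, filterByExpr, Benjamini-Hochberg over all genes at 0.05), with cohort, housing and maternal environment as terms (2 residual degrees of freedom), a cohort term by maternal environment for the interaction (1), or the library as a block between classes. Because the replicate number in the labels is the cohort, pairing by number was already in the fit as the cohort term. DESeq2 1.42.0 was the other tool. Ratios of 2 libraries carry exact 95% Poisson intervals. The tests were tried on simulated data, and doublets were removed in an alternative only. The members always, the 13 partner genes where called, and for each member the genes most correlated with it were named. The members and gene lists were chosen with earlier results of these data known. No deposited column of other samples was left unused. Not every partner gene is reported here by name.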

Additional observations from a re-analysis of the deposited data

Results flagged for a closer look

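The Run to Sed ratio of 6 members differed between cohorts by a test of the interaction, in which cohort 1 has 1 library a group and the spread comes from cohort 2, and these are values of the log2 ratio in cohort 2 minus that in cohort 1 (edgeR, adjusted p under 0.05). They are 31 of 169 values, beside 3.16% of all gene values called, and DESeq2 called 5 of the 31, which were Flrt3 in pyramidal and L5 IT nuclei and Tenm2 in pyramidal, L5 Chst8 and L6 CT nuclei. Flrt3 gave -1.36 in pyramidal nuclei, -1.01 in L2/3, -1.32 in mid-layer, -2.52 in L5 IT, -1.31 in L6 CT, -1.73 in L6 Oprk1 and -1.23 in inhibitory nuclei. Tenm2 gave -0.73 in pyramidal nuclei, -0.45 in mid-layer, -0.50 in L5 IT, -1.03 in L5 Chst8, -0.94 in L5 NP, -1.09 in L6 CT, -0.75 in L6 Oprk1, -0.61 in SST and -0.88 in microglia. Flrt2 gave -0.57 in pyramidal nuclei, -0.68 in mid-layer, -0.78 in L5 IT, -0.74 in L5 Chst8, -0.99 in L6 CT and -0.74 in L6 Oprk1.

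Adgrl3 gave -0.51 in pyramidal nuclei, -0.52 in L5 IT, -0.54 in L5 Chst8, -0.49 in L5 NP and -0.62 in L6 CT. The ratios that were higher in cohort 2 were those of Tenm3 (0.42 in pyramidal nuclei, 0.83 in L2/3 and 0.63 in mid-layer nuclei) and Adgrl1 (0.56 in pyramidal nuclei). The mid-layer value of Tenm3 was 0.21 and 0.39 and not called after subtraction of either background profile, and none of the 3 Tenm3 values was called with nuclei thinned to 1000 UMIs, where 15 of the 31 were.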

How the results depend on the processing

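Between Run and Sed, 2 of 170 values were called with no filter on low counts, 1 of 159 with log-normalized clustering and 16 of 162 from the cohort 2 libraries only, a setting added after the data were seen. Leaving out 1 library gave 0 to 17 calls, and the 17 came without Run GH or without Sed GH of cohort 1, either of which leaves the ratio to cohort 2. For housing, 1 value was called with no filter, with doublets removed and with log-normalized clustering, and 0 to 1 with 1 library left out. Between classes 95 to 104 values were called with 1 library left out. The difference between cohorts, with 31 calls, gave 5 with DESeq2 and 16 with nuclei thinned to 1000 UMIs. Leaving out a library, or keeping group-housed libraries only, left no residual degrees of freedom for it. Without the replicate block, which here is the cohort, 0 values were called for the maternal environment and 0 for housing, and between classes 60 values were called without the library block in place of 102. With log-normalized clustering Tenm4 in VIP against PV turned to 0.18 and Tenm3 in NPY/Lamp5-type against PV to 0.51, neither of them called, and the cause was not tested. The Tenm3 difference between cohorts in mid-layer nuclei was not called after subtraction of either background profile (0.21 and 0.39). Shallow classes limit what could be seen for Flrt1 and Flrt3, which have few UMIs in glia and VIP nuclei.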

Other observations

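A small class with markers of layer 6b was named in cohort 2 only and was in no comparison of its own. Its 207 nuclei were counted among all pyramidal nuclei joined, and their part in the pyramidal values was not tested. The class held 689, 786, 439 and 694 CPM of Tenm3 in Run GH, Sed GH, and the Run and Sed single-housed libraries, from 36, 11, 132 and 28 nuclei.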
